A study of Mus musculus with 18 samples.

Results

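The percent of each gene body lying under H3K36me2 peaks was compared between B cells with a working Mir155 gene (WT) and B cells lacking it (KO). The 6 H3K36me2 peak lists, 3 per genotype, were chosen by their antibody label from the 18 samples of the series, and the unit described was the protein-coding gene of GENCODE M21, of which 21938 lay on the chromosomes. Splenic B cells of C57BL/6 background mice had been enriched by removing CD43+, Ter119+ and CD4+ cells and cultured for 2 days under 1% oxygen and 5% CO2 with anti-CD40 at 1 μg/ml, F(ab')2 anti-IgM at 5 μg/ml and IL-4 at 4 ng/ml, in both genotypes alike. In each genotype the first library (WT1, KO1) was labelled male and the other two (WT2, WT3, KO2, KO3) female. Ages are not given in the labels, and the lists carry no read counts, so sequencing depth is unknown and only the spread between libraries limits the precision of each value. Nothing in the labels says how many mice stand behind the libraries, so p-values measure only the spread between these samples.

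H3K36me2 is the dimethyl form of lysine 36 on histone H3. It is written mainly by the methyltransferases NSD1, NSD2, NSD3 and ASH1L, spreads over broad stretches of genes and intergenic DNA, and is erased by demethylases such as KDM2A and KDM2B, which reach chromatin through a zinc finger that binds unmethylated CpG islands. The trimethyl form, written by SETD2, accumulates along transcribed gene bodies and was not measured here. The study asked whether miR-155, a microRNA for which the Kdm2a transcript was considered a target, affects this mark.

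Some of the genes described can be seen at the level of sequence. Within the genes named further on, the stretches below are 150 bases of intron, on the strand of the gene and in GRCm38.p6 coordinates, taken from the centre of the longest unmasked segment that lay under peaks in all 6 lists or in all 3 WT lists and no KO list, with each CpG in capitals. The first 3 were covered in every list of both genotypes.
Gpr152, chr19:4142198-4142347, plus strand: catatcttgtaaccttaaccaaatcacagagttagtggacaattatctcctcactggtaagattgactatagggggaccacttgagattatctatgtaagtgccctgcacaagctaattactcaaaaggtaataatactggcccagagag
Klrb1c, chr6:128786259-128786408, minus strand: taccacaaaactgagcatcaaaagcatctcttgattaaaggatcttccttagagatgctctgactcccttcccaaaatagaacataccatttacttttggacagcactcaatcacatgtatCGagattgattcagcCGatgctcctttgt
Ifit1bl1, chr19:34597324-34597473, minus strand: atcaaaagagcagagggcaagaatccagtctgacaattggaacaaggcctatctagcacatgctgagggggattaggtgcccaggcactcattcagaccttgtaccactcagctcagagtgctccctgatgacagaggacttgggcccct
The other 3 were covered in each WT list and in no KO list.
C1qtnf6, chr15:78526473-78526622, minus strand: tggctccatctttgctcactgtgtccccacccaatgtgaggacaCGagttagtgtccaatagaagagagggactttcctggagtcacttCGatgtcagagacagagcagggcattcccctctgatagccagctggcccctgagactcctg
Slc22a12, chr19:6538112-6538261, minus strand: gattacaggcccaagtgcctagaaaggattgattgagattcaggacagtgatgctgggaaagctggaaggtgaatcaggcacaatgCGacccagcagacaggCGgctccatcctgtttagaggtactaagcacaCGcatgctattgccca
Emilin1, chr5:30920218-30920367, plus strand: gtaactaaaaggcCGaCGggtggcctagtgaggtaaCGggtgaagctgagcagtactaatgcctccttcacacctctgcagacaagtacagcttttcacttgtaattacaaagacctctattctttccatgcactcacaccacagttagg
The GC content of the covered stretches was 40%, 40% and 52.7% in Gpr152, Klrb1c and Ifit1bl1, and 54.7%, 51.3% and 47.3% in C1qtnf6, Slc22a12 and Emilin1. The first group held 0, 2 and 0 CpGs and the second 2, 3 and 3. Over all gene-body bases under peaks in all 6 lists, 520968 bp in total, the GC content was 45.7% and there were 0.875 CpGs per 100 bp. Over the 4141915 bp under peaks in all 3 WT lists and no KO list, the GC content was 46.8% with 1.11 CpGs per 100 bp, beside 42.9% and 0.984 for gene bodies as a whole. The 6 windows are examples and do not stand for these totals.

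Gene bodies were covered less in the KO lists. The mean gene held 5.52%, 6.50% and 6.55% of its body under peaks in WT1, WT2 and WT3, and 4.71%, 1.33% and 1.26% in KO1, KO2 and KO3. Every KO list was below every WT list, the WT mean being 6.19% ± 0.581 and the KO mean 2.44% ± 1.97 (SD over 3 libraries; exact permutation test, two-sided, p = 0.1, which is as low as 3 against 3 libraries can go; adjusted p = 0.37 over the 11 values tested in this way). KO1 lay close to WT and apart from the other KO lists: it differed from WT1 by -0.807 percentage points, whereas the female KO lists differed from the female WT lists by -5.23 on average. Without KO1 the difference was -4.89 percentage points, and with it -3.75. With an equal number of 37447 peaks per list, the strongest by q, coverage was 2.93%, 3.42% and 3.50% in the WT lists and 1.98%, 1.33% and 1.07% in the KO lists. With only peaks of a −log10 q of 2 or more it was 1.14%, 1.41% and 0.786% in the WT lists and 1.04%, 0.153% and 0.0803% in the KO lists, so that KO1 was then above WT3 and the lists overlapped.

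The mark was unevenly spread over genes. The median gene had 0% coverage in each list. A peak touched 9072, 9451 and 9417 genes in WT1, WT2 and WT3, and 9462, 4616 and 5100 genes in KO1, KO2 and KO3, so KO1 reached more genes than any WT list at a lower mean coverage. At least 20% of the body was covered in 1905, 2365 and 2377 genes in WT and in 1512, 274 and 240 genes in KO. At least 50% was covered in 368, 476 and 515 genes in WT and in 221, 38 and 27 in KO. Across genes, the Spearman correlation between lists was 0.741 to 0.760 within WT, 0.730 to 0.748 between KO1 and the WT lists, 0.653 between KO2 and KO3, and 0.557 and 0.603 between KO1 and those 2 lists. These are descriptions over genes, which are not independent replicates, and lists of unequal length differ in how many genes are at 0.

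**Figure D1:**
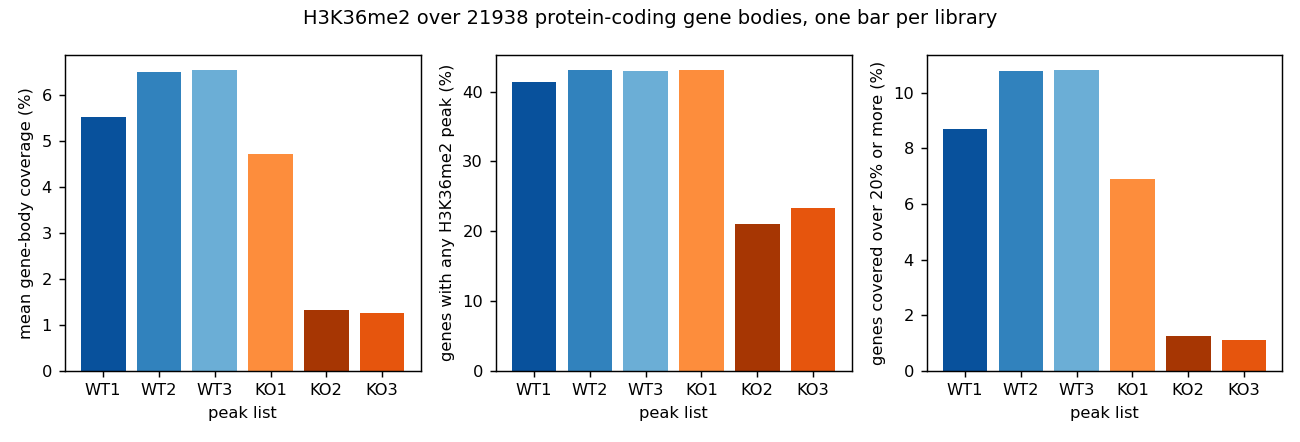
Mean gene-body coverage (left, percent), the percent of 21938 protein-coding genes with any H3K36me2 peak (middle) and the percent of genes with 20% or more of the body covered (right), one bar per library. KO1 is at 4.71% mean coverage and reaches 43.1% of genes, whereas KO2 and KO3 are at 1.33% and 1.26% and reach 21.04% and 23.2%.

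The next question was which genes differed. Of the 21938 genes, 9177 had no peak in any list, 2957 had a peak but a mean coverage under 1%, and 9804 were tested with limma on percent coverage. Adjusted p-values under 0.05 were found for 0 genes in either direction, 0% of those tested, with a lowest adjusted p of 0.241. At an unadjusted p under 0.05 there were 1895 genes lower and 4 higher in KO. On the log2 scale the same tool called 29 genes lower and 0 higher. All KO lists were below all WT lists in 2816 genes, 28.7% of those tested, and all KO lists were above all WT lists in 9 genes, 0.0918%. The filter let in 1386 genes with no peak in any KO list and 218 with none in any WT list, which had to differ in mean. Over all 21938 genes without the filter, the KO lists were below the WT lists in 2911, or 13.3%. Without KO1, limma again called 0 genes, with 3104 lower and 6 higher at an unadjusted p under 0.05.

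Because the KO lists held less peak sequence in total, coverage was also divided by the mean over all genes of the same list. On this relative scale limma called 0 genes in either direction, 0% of 9804, with a lowest adjusted p of 0.694, and at an unadjusted p under 0.05 there were 481 lower and 48 higher. All KO lists were below all WT lists in 819 genes, 8.35%, and above in 234, 2.39%. Centred within deciles of GC content, the relative values gave 462 lower and 228 higher at an unadjusted p under 0.05 and 0 calls. The genes described below were therefore chosen for the size of their difference among genes with lists that did not overlap, and none of them passed the adjusted threshold.

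The 10 genes of 5 kb or more with the highest mean coverage over the 6 lists are described first, and high values in both genotypes follow in part from that choice. Gpr152, an orphan receptor gene, was covered over 100%, 100% and 100% of its body in WT1, WT2 and WT3 and over 100%, 82.2% and 53.6% in KO1, KO2 and KO3. Its neighbour Cabp4, a calcium-binding protein gene of photoreceptors that overlaps it on chromosome 19, had 100%, 100% and 94.5% in WT and 89.0%, 53.9% and 40.8% in KO. The 2 genes share sequence and are not separate observations. Klrb1c, which encodes the natural killer cell receptor NK1.1, lies at chr6:128778485-128789215 in GRCm38. Its coverage was 83.0%, 100% and 100% in the WT lists and 63.6%, 80.6% and 58.8% in the KO lists. Ccr2, the receptor of monocyte chemoattractants, had the smallest difference of the 10. It stood at 68.6%, 73.8% and 62.7% in WT and 63.0%, 65.3% and 56.2% in KO, so that its lists overlapped. Pigr, the receptor that carries polymeric immunoglobulin across epithelia, had 65.2%, 85.5% and 95.0% in WT and 54.0%, 59.5% and 52.0% in KO. Ifit1bl1, of the interferon-induced Ifit family, had 100%, 76.5% and 100% in WT and 46.5%, 69.6% and 50.1% in KO. In Pigr and Ifit1bl1 each KO list lay below each WT list. The remaining members of the 10 were Fam83f, 4922502D21Rik, Bex6 and Cib3, with WT means between 79.8% and 87.9%. Cib3 was without a peak in KO2 and at 73.5% and 58.4% in KO1 and KO3.

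The 10 largest differences below WT exceeded 50 percentage points, which only genes covered over more than that in WT could show. C1qtnf6, a secreted protein gene of the C1q and tumour necrosis factor family, lies at chr15:78523346-78531416 and was covered over 87.3%, 86.2% and 81.8% in WT and over 34.8%, 0% and 0% in KO. Slc22a12, the urate transporter gene of kidney, which lies inside the longer gene Nrxn2, had 60.6%, 82.9% and 100% in WT and 28.7%, 7.36% and 0% in KO. Emilin1, an extracellular matrix glycoprotein gene, had 70.5%, 96.0% and 93.4% in WT and 37.8%, 10.9% and 21.8% in KO. In these 3 genes KO1 was between the WT lists and the other KO lists. Nthl1, a DNA glycosylase gene of base excision repair, had 68.8%, 76.2% and 71.01% in WT and 32.5%, 6.22% and 0% in KO. Tnfrsf17, which encodes the plasma cell survival receptor BCMA, had 49.4%, 62.9% and 76.8% in WT and 31.0%, 0% and 0% in KO. Aif1, a gene of macrophages, had 100%, 100% and 59.2% in WT and 49.6%, 42.6% and 8.66% in KO. The differences of the 10 genes ranged from -52.3 to -73.5 percentage points, each with an adjusted p of 0.253 in limma, and the others were Sh2d6, Tifab, Clec12b and Endou. In KO3 6 of the 10 were without a peak. On the relative scale the 5 largest differences below WT were C1qtnf6, Slc22a12, Tifab, Tnfrsf17 and Nthl1, all among the same 10.

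The KO mean was above the WT mean in 846 of the 9804 genes tested and below it in 8956. Genes of 5 kb or more with every KO list above every WT list were few. The largest difference among them was 14.5 percentage points. Siglech, a marker of plasmacytoid dendritic cells, had 0%, 12.5% and 0% in WT and 13.8%, 22.6% and 19.6% in KO. Ilk, the integrin-linked kinase gene, had no peak in any WT list and 14.8%, 5.46% and 7.88% in KO. Erich6 had 0%, 3.48% and 2.42% in WT and 17.03%, 8.70% and 4.90% in KO. The other 4 genes of 5 kb or more with every KO list above every WT list were Cd300c, Purg, 4930579F01Rik and Gpr35, with differences between 1.77 and 4.38 percentage points. The relative scale put Gpr152, Ccr2, Fam189b, 4922502D21Rik and Cabp4 highest among genes with every KO list above every WT list. Their percent coverage was lower in KO on average, and it was higher only in relation to the smaller total of the KO lists.

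**Figure D2:**
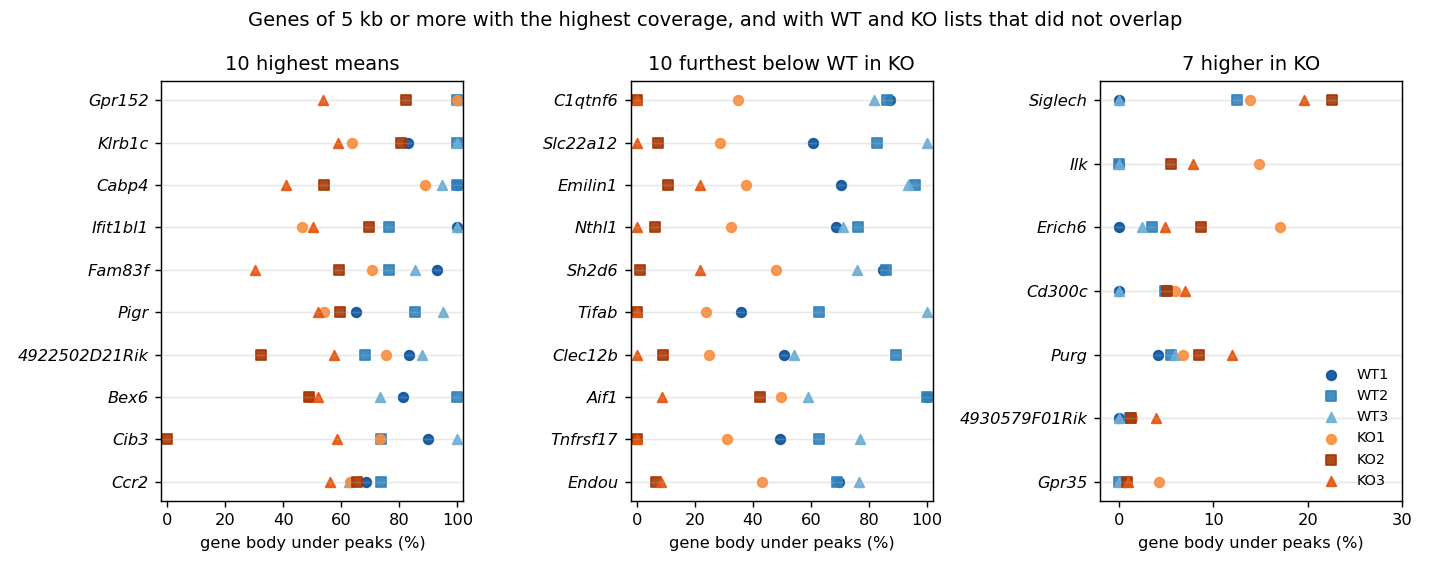
Percent of the gene body under H3K36me2 peaks (x axis) in each of the 6 lists for genes of 5 kb or more (y axis): the 10 with the highest mean (left), the 10 furthest below WT in KO (middle) and the 7 with higher coverage in KO (right) among genes with WT and KO lists that did not overlap; the right axis ends at 30%. C1qtnf6 goes from 81.8% or more in each WT list to 34.8% in KO1 and 0% in KO2 and KO3, whereas Ccr2 stays at 56.2% or more in each list.

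Genes marked in a genotype were defined as those with at least 20% of the body covered in at least 2 of its 3 lists. By this rule 2068 genes were marked in WT, 9.43% of all, and 295 of them were also marked in KO. Another 1773 were marked in WT only and 14 in KO only. Of the 2068 genes, 1145 reached 20% in KO1, 238 in KO2 and 218 in KO3, which is 55.4%, 11.5% and 10.5%. Only 96 did so in all 3 KO lists, 858 did so in none, and 438 had no peak at all in KO2 and KO3. The 295 genes marked in both genotypes had a median WT coverage of 54.7%, against 29.6% for those marked in WT only, so genes with more of the body covered in WT were more often above the threshold in KO. Without KO1, 109 genes were marked in both.

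The genes that kept the mark were mostly genes without a CpG island within 2 kb of a start site. An island was present in 28.5% of the 295 genes marked in both genotypes, in 64.8% of the 1773 marked in WT only and in 59.9% of all genes. Of the 835 WT-marked genes without an island, 25.3% stayed marked in KO, and of the 1233 with an island, 6.81%. The share that reached 20% was higher without an island in each KO list, at 65.5% against 48.5% in KO1, 20.1% against 5.68% in KO2 and 19.6% against 4.38% in KO3. Genes without an island started from a higher WT median, 38.7% against 29.2%. Among WT-marked genes with a WT mean under 40% the share kept was 7.47% without and 2.76% with an island, between 40% and 60% it was 34.5% and 18.01%, and from 60% it was 60.4% and 44.2%. The order was also the same in each quintile of GC content, from 52.4% against 12.5% in the lowest quintile to 15.6% against 5.87% in the highest. The part that gene length took in these shares was not tested; WT-marked genes had a median length of 11.7 kb without an island and 27.6 kb with one.

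The same contrast appeared in coverage over all genes of 5 kb or more, without a threshold. The ratio of mean coverage at genes with an island to that at genes without was 1.08, 1.05 and 1.09 in the WT lists and 1.00, 0.757 and 0.747 in the KO lists, and the lists of the 2 genotypes did not overlap (two-sided exact permutation test, p = 0.1; adjusted p = 0.37). KO1 differed from WT1 by -0.0795 in this ratio, and the female KO lists from the female WT lists by -0.344 to -0.295. With an equal number of peaks per list the difference between the genotype means was -0.112, against -0.240 with all peaks. The ratios were then 0.922, 0.857 and 0.878 in the WT lists and 0.856, 0.757 and 0.709 in the KO lists. With only peaks of a −log10 q of 2 or more KO1, at 0.764, was above WT2, at 0.760, and the lists overlapped. WT1 and WT3 were then at 0.832 and 0.779. In both of these settings WT genes with an island were thus covered less than those without, the reverse of the order with all peaks. Genes with an island averaged 6.47% ± 0.605 in WT against 2.42% ± 2.03 in KO, and genes without one 6.02% ± 0.602 against 2.69% ± 1.79 (SD, 3 libraries per genotype).

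The relation of coverage to GC content was alike in the WT lists and KO1 and different in KO2 and KO3. From the lowest to the highest quintile of genes by GC content, mean coverage went from 2.01% to 10.0% in WT1, from 3.32% to 9.98% in WT2, from 3.09% to 10.7% in WT3 and from 1.68% to 8.35% in KO1. In KO2 it went from 1.55% to 0.998% and in KO3 from 1.10% to 1.35%. The ratio of the highest to the lowest quintile was thus 4.96, 3.01 and 3.44 in WT and 4.96, 0.642 and 1.23 in KO (exact permutation test, p = 0.3). KO1 and WT1 had the same ratio. KO2 fell from 1.75% in the quintile above the lowest to 0.998% in the highest, and KO3 stayed between 1.10% and 1.53% in all quintiles. The bases under peaks split the lists in the same way: the GC content of covered gene-body bases was 46.1%, 44.9% and 45.4% in the WT lists and 46.4%, 42.0% and 43.2% in the KO lists. The mean coverage in KO over that in WT was 0.514 in the lowest quintile and 0.349 in the highest. The kept share of WT-marked genes went in opposite directions in the KO lists, from 42.6% in the lowest to 59.1% in the highest quintile in KO1, from 43.4% to 6.07% in KO2 and from 32.8% to 6.07% in KO3. GC content thus moved with the differences between lists given here, and its part in them was not tested.

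**Figure D3:**
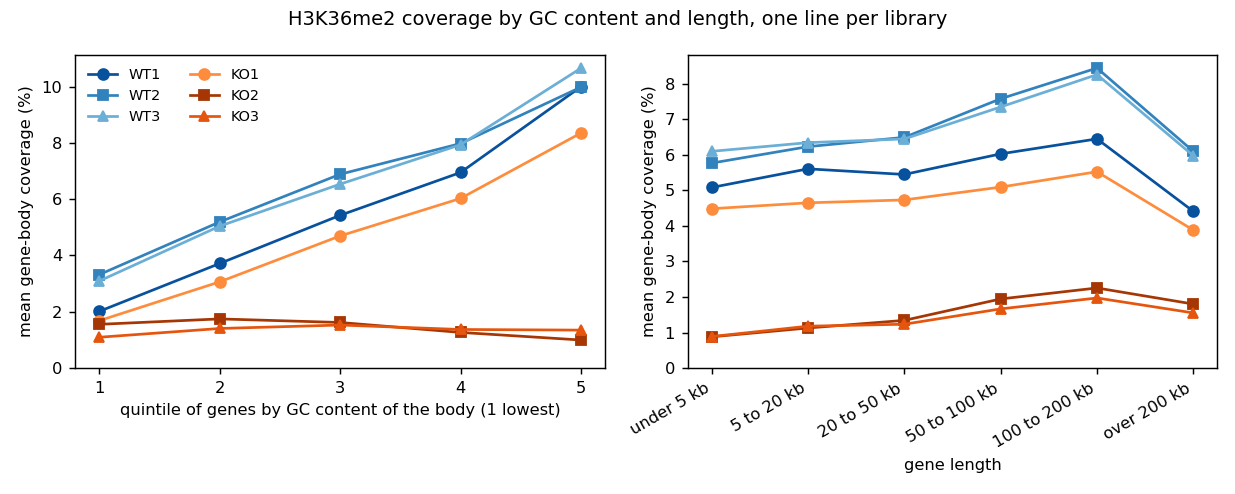
Mean gene-body coverage (y axis, percent) by quintile of GC content of the gene body in genes of 5 kb or more (left) and by gene length over all genes (right), one line per library. The WT lists and KO1 rise with GC content, to between 8.35% and 10.7% in the highest quintile, whereas KO2 and KO3 stay between 0.998% and 1.75%.

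**Figure D4:**
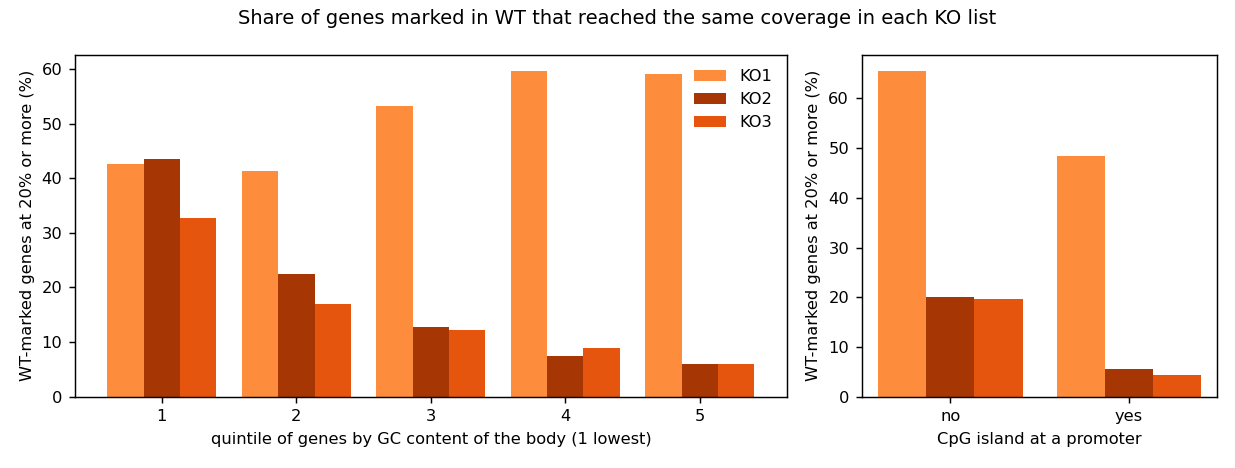
Percent of the 2068 genes marked in WT that reached 20% coverage in KO1, KO2 and KO3 (bars), by quintile of GC content (left) and by presence of a CpG island within 2 kb of a start site (right). KO2 and KO3 go from 43.4% and 32.8% to 6.07% with GC content while KO1 goes from 42.6% to 59.1%, and all 3 lists are lower at genes with an island.

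Coverage also varied with gene length, over a narrower range than with GC content in the WT lists and KO1 and over a wider one in KO2 and KO3. Mean coverage was highest in genes of 100 to 200 kb, at 7.71% ± 1.10 in WT and 3.25% ± 1.97 in KO, and lowest in WT in genes over 200 kb, at 5.49% ± 0.940. The coverage of genes of 50 to 100 kb over that of genes of 5 to 20 kb was 1.08, 1.22 and 1.16 in the WT lists and 1.10, 1.72 and 1.41 in the KO lists; KO1 lay within the WT range (exact permutation test, p = 0.3). Genes under 5 kb had 5.65% ± 0.518 in WT and 2.08% ± 2.08 in KO. KO over WT ranged from 0.369 in genes under 5 kb to 0.439 in genes over 200 kb, but the KO lists differed in this. In KO1 coverage was lower in genes over 200 kb than in genes under 5 kb, 3.88% against 4.48%. In KO2 and KO3 it was higher, 1.80% against 0.879% and 1.55% against 0.888%. Genes with many neighbours were covered more in WT: the quintile of genes with most coding genes within 500 kb had 7.99% ± 0.303 and the quintile with fewest 4.30% ± 0.668, a ratio of 2.17, 1.69 and 1.78 in WT and 2.10, 0.825 and 1.21 in KO (exact permutation test, p = 0.3).

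Within genes the mark leaned to the 5′ side in each library. With the body cut into 3 parts of equal length, the first part was covered more than the middle one by a ratio of 1.52, 1.43 and 1.41 in WT and 1.33, 1.48 and 1.44 in KO, and the last part less, at 0.802, 0.798 and 0.802 in WT and 0.851, 0.778 and 0.785 in KO. Neither ratio separated the genotypes (exact permutation tests, p = 0.6 and 1). Exons were covered less than introns, by a ratio of 0.773, 0.691 and 0.723 in WT and 0.809, 0.475 and 0.541 in KO (p = 0.4, exact permutation test). Gene bodies were covered more than the rest of the genome in WT, at 1.31, 1.34 and 1.32, and 1.29, 1.04 and 0.990 in KO, where each list was below each WT list (exact permutation test, p = 0.1). With only peaks of a −log10 q of 2 or more this ratio was between 0.702 and 1.01 in the 6 lists, and the genotypes overlapped. With an equal number of peaks per list the difference between the genotype means was -0.0534, against -0.218 with all peaks. Genes on the X chromosome were almost free of peaks in both sexes and genotypes, with mean coverages between 0.0255% and 0.286%, beside 5.82% to 6.89% on the autosomes in WT and 1.33% to 4.96% in KO.

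Gene groups held very different amounts of the mark. Coverage was highest in groups of genes of specialised blood cells, near the genome mean in B cell identity genes, low in housekeeping groups and near 0 in Hox, keratin, defensin and vomeronasal receptor genes. The groups were described by the mean over their members in each list, beside 5.52%, 6.50% and 6.55% over all genes in WT and 4.71%, 1.33% and 1.26% in KO. No member of any group passed the adjusted threshold in limma.

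Plasma cell genes were the group with the highest coverage in WT. Its 9 members had mean coverages of 19.4%, 29.6% and 35.9% in WT and 20.9%, 2.25% and 1.42% in KO. KO1 lay within the WT range and the female KO lists lay far below it. Of the 8 members tested, 4 had every KO list below every WT list, beside 28.7% of all genes tested. Mzb1, a chaperone of immunoglobulin assembly, had 41.3%, 100% and 100% in WT and 89.1%, 0% and 0% in KO. Sdc1, which encodes the plasma cell surface proteoglycan CD138, had 38.8%, 34.6% and 49.4% in WT and 24.0%, 5.51% and 2.33% in KO. Prdm1, the gene of the plasma cell regulator BLIMP-1, had 14.3%, 31.3% and 18.9% in WT and 10.8%, 7.12% and 3.58% in KO. Xbp1, the transcription factor of the secretory programme, had no peak in any list. Divided by the mean of all genes, the group stood at 3.52, 4.55 and 5.48 in WT and 4.43, 1.69 and 1.12 in KO.

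T cell genes were highly covered in cells labelled B cells. The 19 T cell markers had means of 18.3%, 23.9% and 22.9% in WT and 20.2%, 8.61% and 3.98% in KO, and 10 of them were marked in WT. Tcf7, the transcription factor TCF1 of T cells, had 58.7%, 48.9% and 61.8% in WT and 42.6%, 7.96% and 5.58% in KO. In Tcf7 every KO list lay below every WT list. Cd3d, a subunit of the T cell receptor complex, had 63.1%, 69.8% and 55.5% in WT and 63.9%, 68.2% and 0% in KO, and its lists overlapped. The defining markers Cd8a and Cd8b1 had no peak in any list, and Cd4 and Cd3e had 1.11% and 5.34% in WT2 alone. Coverage by this mark does not measure expression, and the part of any T cells left in the cultures was not tested.

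The mean over the myeloid markers was carried by a few genes. Of the 18 genes, 3 were marked in WT and 5 had no peak in any list, and the median member had a coverage of 7.40% in WT and 3.51% in KO. The 18 genes had means of 14.3%, 18.1% and 17.8% in WT and 12.3%, 6.05% and 6.26% in KO, and in relation to all genes 2.59, 2.78 and 2.71 in WT and 2.61, 4.54 and 4.96 in KO. The 3 members marked in WT were also marked in KO, beside 14.3% of all genes marked in WT, and 2 of them are neighbours. None of the 3 had a CpG island, and their WT means were 75.5%, 65.1% and 52.0%. Among all WT-marked genes without an island the kept share was 34.5% at WT means of 40% to 60%. It was 60.4% at WT means from 60%. Itgax, which encodes the integrin CD11c, had 69.2%, 74.0% and 83.3% in WT and 60.3%, 31.9% and 21.1% in KO. Itgam, its neighbour on chromosome 7 and the gene of CD11b, had 38.8%, 60.6% and 56.6% in WT and 34.9%, 22.9% and 24.3% in KO. Clec9a, a dendritic cell lectin, had 64.0%, 83.5% and 47.9% in WT and 22.8%, 14.6% and 28.9% in KO. In these 3 genes the lists of the genotypes did not overlap. Of the 13 members tested, 5 had every KO list below every WT list, beside 28.7% of all genes tested. Siglech went the other way, with every KO list above every WT list. It had 0%, 12.5% and 0% in WT and 13.8%, 22.6% and 19.6% in KO. Cd14, Cebpa, Ly6g, S100a8 and S100a9 had no peak in any list.

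KDM2A peaks gave a separate view of these groups. A KDM2A peak lay within 2 kb of a start site, in at least 2 of 3 WT lists of that antibody, at 26 of 26 B cell identity genes, 8 of 19 T cell markers and 0 of 18 myeloid markers, beside 47.7% of all genes (10468). H3K36me2 coverage had another order, with B cell identity genes at 6.05%, 7.15% and 6.15% in WT and 5.17%, 1.42% and 1.36% in KO. Foxp1, a transcription factor of B cell development, was the highest of them at 28.2%, 30.4% and 29.4% in WT and 22.5%, 14.4% and 11.6% in KO. Ebf1, a B lineage determining factor, had 11.6%, 16.3% and 12.8% in WT and 7.48%, 2.62% and 2.18% in KO. In both, each KO list was below each WT list. Pax5, which maintains B cell identity, had 1.18%, 2.91% and 4.34% in WT and 0.48%, 0% and 0.15% in KO. Every KO list was below every WT list in 6 of the 19 members tested, a share near the 28.7% of all genes tested. Over all genes of 5 kb or more, coverage was 8.503% ± 0.641 in WT and 3.15% ± 2.59 in KO where KDM2A was at the promoter in both genotypes (7510 genes), and 3.68% ± 0.515 and 1.69% ± 1.13 where it was in neither (8252 genes). KO over WT was 0.370 and 0.459 in these classes. An island was present in 93.9% and 35.0% of their genes. Among genes with an island, coverage was 7.97% ± 0.637 in WT and 2.93% ± 2.43 in KO with KDM2A in both genotypes (7051 genes), and 2.78% ± 0.413 and 1.15% ± 1.02 with it in neither (2886 genes). Among genes without an island it was 16.7% ± 0.738 and 6.50% ± 5.10 with KDM2A in both (459 genes), and 4.17% ± 0.573 and 1.98% ± 1.19 with it in neither (5366 genes). Genes with KDM2A at the promoter were thus covered more in each of the 6 lists, with or without an island, and genes without an island were covered more in either KDM2A class. KO over WT was 0.368 with an island and 0.390 without one where KDM2A was in both, and 0.413 and 0.475 where it was in neither.

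Some genes of activation and the germinal centre held more of the mark. Cxcr5, the receptor that guides B cells into follicles, had 63.4%, 61.9% and 65.5% in WT and 49.3%, 42.8% and 36.2% in KO. Foxo1, a factor of the germinal centre dark zone, had 33.3%, 42.3% and 41.0% in WT and 22.2%, 6.64% and 4.82% in KO. Cxcr5 had higher coverage than Foxo1 in each list. Among the 27 members, 6 of the 18 tested had every KO list below every WT list, which is near the 28.7% of all genes tested, and Cxcr4 and Stat6 had no peak. Interleukins and their receptors, 68 genes, had means of 9.11%, 12.3% and 9.82% in WT and 7.77%, 4.68% and 2.76% in KO. Il10, the anti-inflammatory cytokine, had 21.4%, 78.5% and 49.2% in WT and 15.8%, 13.9% and 34.5% in KO, and its lists overlapped. Il2, the T cell growth factor gene, had 82.1% in KO2 and between 9.20% and 41.7% in the other lists.

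Replication-dependent histone genes stood above the genome mean, at 11.1%, 13.4% and 9.49% in WT and 5.75%, 3.10% and 1.60% in KO. The 67 genes are short and clustered, and 40 of them had no peak in any list. Hist1h4f had 100%, 85.9% and 100% in WT and 0%, 1.53% and 0% in KO. The linker histone gene Hist1h1d had 68.4%, 53.0% and 57.7% in WT and 12.4%, 28.7% and 11.8% in KO. In both the genotypes did not overlap, as in 5 of the 26 members tested, a smaller share than the 28.7% of all genes tested.

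The enzymes that write and erase the mark held little of it themselves. The 8 methyltransferase genes had means of 2.41%, 4.38% and 3.57% in WT and 1.80%, 1.78% and 0.34% in KO, and none was marked in either genotype. Setd2, the gene of the trimethylating enzyme, had 1.91%, 5.95% and 3.64% in WT and 0.22%, 0% and 1.196% in KO. Nsd2 had 2.10%, 5.05% and 3.77% in WT and 0.27%, 4.04% and 0.48% in KO, and its lists overlapped. Of the 8 demethylase genes, Kdm2b had most, at 10.5%, 11.0% and 8.02% in WT and 4.88%, 0.97% and 1.24% in KO. Kdm2a itself, at chr19:4314419-4398285, had 1.23%, 0% and 0.30% in WT and 0.81%, 0.32% and 0% in KO. Kdm2a was under the 1% filter and was not tested.

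Housekeeping groups of the spliceosome, DNA replication and the respiratory chain held less of the mark than the average gene in each list. Spliceosome genes had 2.10%, 3.55% and 1.52% in WT and 0.71%, 0.045% and 0.16% in KO, DNA replication genes 2.29%, 3.06% and 2.14% in WT and 1.21%, 0.60% and 0.41% in KO, and genes of the respiratory chain 3.65%, 2.40% and 2.98% in WT and 3.15%, 0.63% and 0.46% in KO. Lsm10, a protein of the histone pre-mRNA processing particle, had 36.1%, 35.6% and 31.9% in WT and no peak in any KO list. Genes of glycolysis and the response to low oxygen were nearer the mean, with 6.80%, 7.78% and 7.48% in WT and 4.95%, 1.36% and 1.39% in KO. Ankrd37, a target of hypoxia-inducible factor, had 35.3%, 45.2% and 48.7% in WT and 29.5%, 6.50% and 13.8% in KO. The lists did not overlap in 5 of the 25 tested members of this group, 5 of 16 of the spliceosome and 3 of 33 of the respiratory chain, beside 28.7% of all genes tested.

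Olfactory receptor genes were silent for the mark except in a few places. Of 1135 genes, 1064 had no peak in any list and 20 were marked in WT. Of these 20, 12 were marked in KO as well, or 60%, beside 14.3% of all genes marked in WT. Among all WT-marked genes without a CpG island this share was 52.4% in the lowest quintile of GC content and 36.6% in the next. Both of these classes hold some of the 20 olfactory genes. The share of the 20 that reached 20% coverage was 55.0% in each KO list. None of the 20 had a CpG island, and 15 lay in 3 stretches, chr1:174040705-174138257, chr7:106675005-106821472 and chr8:72041218-72118200, so they are not separate observations. Olfr432 had 37.6%, 74.5% and 77.9% in WT and 48.2%, 46.4% and 58.5% in KO. Olfr373 and Olfr374 on chromosome 8 had 63.2% or more and 50.9% or more in each WT list and 18.3% or more and 23.5% or more in each KO list. Hox genes were covered at 0.0425% or less in each list, and 37 of the 39 had no peak although 37 have a CpG island.

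**Figure D5:**
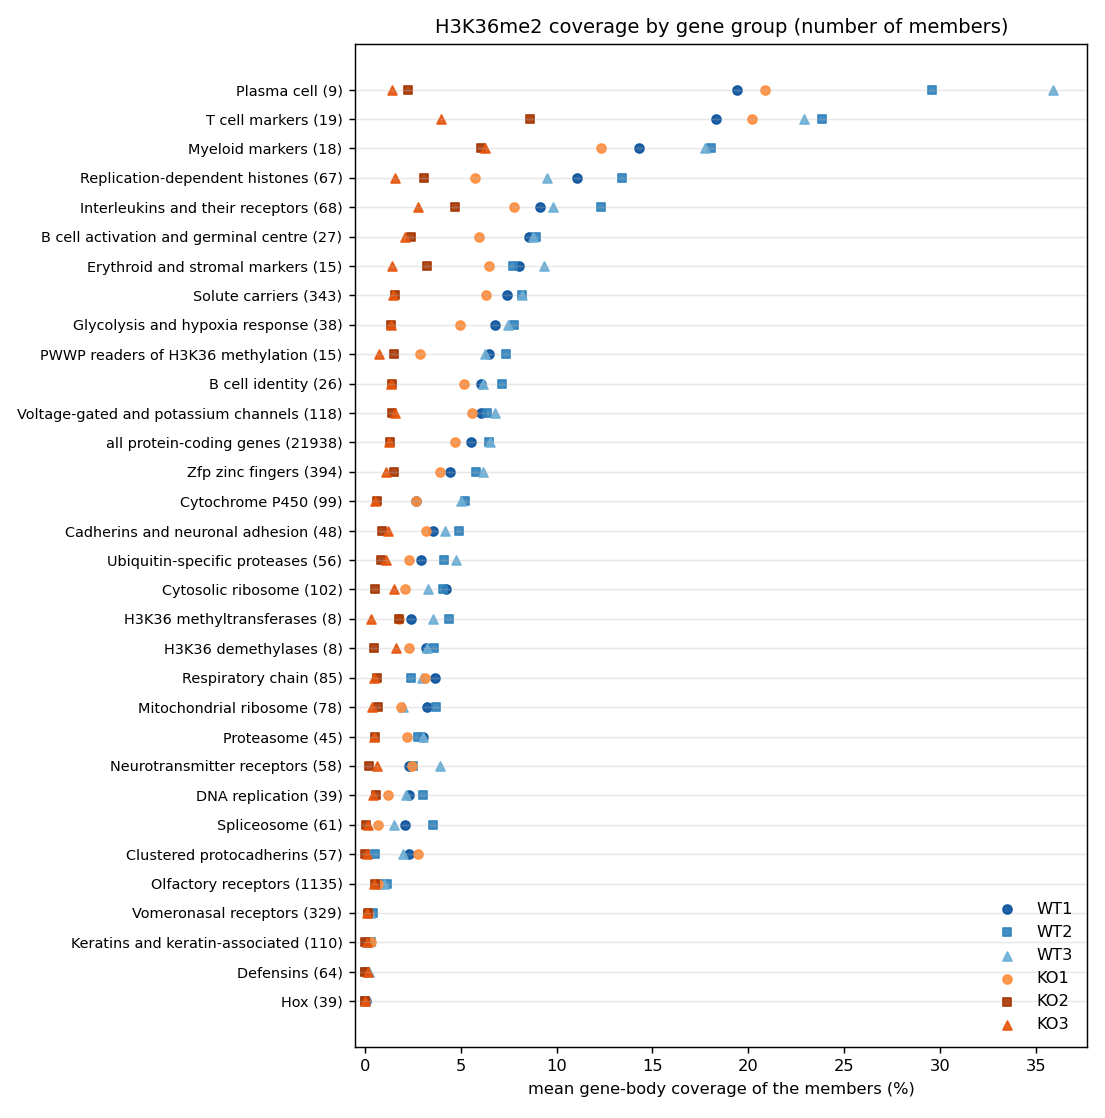
Mean gene-body coverage (x axis, percent) of the members of 31 gene groups and of all protein-coding genes (y axis, number of members in brackets), one point per library, in order of the WT mean. Plasma cell genes are highest in WT, from 19.4% to 35.9%, and at 2.25% and 1.42% in KO2 and KO3. KO1 lies within the range of the WT lists in some groups, such as plasma cell genes and T cell markers. It lies below every WT list in others, such as DNA replication and spliceosome genes.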

How the data were processed

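Peak lists of the 6 H3K36me2 libraries, and of the 6 KDM2A libraries for the promoter classes, were used; the 6 input libraries were not analysed here. The authors ran the nf-core/chipseq workflow, in which BWA placed reads on GRCm38 and MACS2 made a broad peak list for each library against input, with no pooling of replicates. The deposited fold of a peak is a ratio over background, and the deposited −log10 of the q-value has a minimum of 1.00. The fold was used to describe lists and to order peaks of equal q where an equal number of peaks was taken. The p-values and scores in the lists were not used. Versions of BWA and MACS2 are not given in the sources used here. MACS2 lists depend on depth, which is unknown.

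Gene bodies ran from the first to the last base of each protein-coding gene of GENCODE M21, with 13 mitochondrial genes left out; 54 rows share a symbol with another and 21.7% of genes overlap another coding gene, which then share peaks. Coverage was the percent of the body under merged peaks. Quintiles of GC content and of gene density were set over genes of 5 kb or more. CpG islands (16943) were found in the unmasked part of GRCm38.p6 as segments scored 17 per CpG and minus 1 per other base, with at least 200 bp, 50% GC and an observed over expected CpG ratio of 0.6. Single values were compared with two-sided exact permutation tests over libraries, adjusted by Benjamini-Hochberg over 11 values. Genes with a mean of at least 1% entered limma (version 3.58.1, R 4.3.3; lmFit and trended eBayes; adjusted p under 0.05). The fits were tried on simulated data over 9804 genes with 200 changed genes. The percent fit recovered 0% of changes of 10 points, 42.0% of 20 and 77.0% of 40, with 0, 2 and 4 false calls. The relative fit recovered 0%, 37.5% and 74.0% of changes of 2, 4 and 8, with 0, 3 and 5 false calls. A fall of 20 points exceeds the WT coverage of the median tested gene, 8.34%. In the lists, the 10 genes furthest below WT differed by -52.3 to -73.5 percentage points, and the percent fit called none of them. How far the recovered shares hold for the lists was not tested. The remaining steps used Python 3.11.15, scipy 1.17.1, pandas 2.3.3 and numpy 2.4.6.

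The genes named were, among those of 5 kb or more, the 10 with the highest mean coverage, the 10 with the largest difference in each direction (5 on the relative scale) among genes past the adjusted threshold or, where fewer than 5 passed, among genes with WT and KO lists that did not overlap, and from each of 31 gene groups the members with the highest WT mean and the largest differences. All B cell identity and H3K36 enzyme genes could be named. Other members of the plasma cell, T cell and myeloid groups and the olfactory receptor stretches were named after their values were seen. The genes, groups and tests were chosen with earlier results of these data known.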

Additional observations from a re-analysis of the deposited data

Results flagged for a closer look

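For 4 values the male pair and the female libraries went in opposite directions, each female KO list lying on the other side of each female WT list; with 1 male library per genotype the difference was not tested, and a split by sex and a library that stands apart cannot be told apart. The percent of genes with any peak was 1.78 percentage points higher in KO1 than in WT1 and 20.9 points lower on average in the female KO lists. The exon over intron ratio was 0.0364 higher in KO1 than in WT1 and 0.199 lower in the female KO lists. The coverage of the first over that of the middle part of the gene body, cut into 3 equal parts, differed by -0.193 in the male pair and by 0.0392 in the female libraries, and that of the last over the middle part by 0.0492 and -0.0183.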

How the results depend on the processing

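All 66 alternatives to the 6 single values kept the direction of the difference between KO and WT. The replicate block alternative of each value repeats the main difference by construction, so it could not change direction. For mean coverage, gene bodies against the rest of the genome and the island ratio, every KO list was below every WT list. Leaving out 1 library therefore could not change the direction of these values either. With 1 library left out the GC ratio difference of -1.53 ranged from -2.87 (without KO1) to -0.709 (without KO2; -0.948 without WT1 and -1.004 without KO3), that of density, -0.504, from -0.863 (without KO1) to -0.227 (without KO2), and that of length, 0.261, from 0.104 (without KO2) to 0.418 (without KO1). Leaving out 1 library moved the difference in mean coverage between -4.89 and -3.17 percentage points. The lists were apart with all libraries, so leaving 1 out could not make them overlap. Limma called 29 genes lower on the log2 scale of percent + 1, and 0 genes under every other setting of either scale. Marked in both genotypes were 295 genes, but 10 with peaks of −log10 q of 2 or more, 170 with equal numbers of peaks, 885 at a threshold of 10%, 26 at 50%, and 109 to 272 leaving out 1 library, with the lowest count without KO1. Marked in WT only were 1773 genes, but 148, 779, 3152 and 358 under the same settings and 1128 to 1959 leaving out 1 library, lowest without WT3. Marked in KO only were 14 genes, but 4 with the stricter peaks, 35 at 10%, 3 at 50%, and 0 to 38 leaving out 1 library. Same-numbered libraries shared the labelled sex and a number, and nothing in the labels pairs them further: their deviations correlated at -0.0287, 0.0595 and -0.0692. With the replicate block limma called 0 genes (unadjusted p under 0.05: 1112 lower, 7 higher), and the paired difference in mean coverage was -3.75 (exact sign-flip test, p = 0.25, the smallest possible). GC-centred and female-only fits, the GC and density ratios, and the KDM2A classes split by island, were added after seeing the data. Also unplanned were the exon over intron ratio and the ratios of the first and last over the middle part of the gene body. So were the percent of genes with any peak and the X over autosome ratio. Depth is unknown, so a low coverage in KO2 and KO3 cannot be set against reads.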
